A study of Mus musculus with 319 samples.

Results

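Csn2 encodes beta-casein and Csn1s2a encodes alpha-S2-casein A, 2 of the milk proteins that bind calcium phosphate and pack into casein micelles. They were followed here in a series of mouse muscle arrays, because their values stood far above the rest on a few animals. All probes that the platform's probe-to-gene table assigns to either gene were taken, which gave 1 probe for each gene, 2 of the 23382 probes on the array. The genes were chosen by their measured log2 ratios on these same arrays, so their levels, their tail and their likeness are given as a description without a test. Muscle RNA came from 319 F2 mice of both sexes, bred from the strains C57BL/6J and C3H/HeJ, and every animal carried the ApoE null background. All mice ate a high fat Western diet between 8 and 24 weeks of age. Per the labels, the RNA of each animal was marked with Cy3 and set against Cy5-marked RNA of a pool that held an equal share of every sample. The labels name no muscle, genotype, treatment group or hybridisation batch and a sex for only 1 animal, so all 319 arrays formed 1 group of F2_muscle samples and no array was assigned a sex. Each value is a log2 ratio of the animal over the pool. The pool holds RNA of the high animals as well, so a ratio does not show the absolute level of a transcript.

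Caseins are made by the secretory cells of the mammary gland, an epithelium of luminal cells around a lumen, surrounded by basal myoepithelial cells and embedded in fat under the skin. Prolactin acts through its receptor, the kinase JAK2 and the transcription factor STAT5, which together with ELF5 drives milk protein genes in late pregnancy and lactation. Skeletal muscle is not a tissue known for casein synthesis. In whole-tissue RNA, more cells of a type and more RNA per cell cannot be told apart.

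The protein-coding genes of the casein region on mouse chromosome 5 lie in the order Csn1s1, Csn2, Csn1s2a, Csn1s2b, Prr27, Odam, BC037156 and Csn3 in RefSeq. Promoters are shown for the 3 casein genes whose values moved together most closely and that have an entry in the RefSeq promoter table of GRCm38.p6. Each runs from 250 bases before to 30 bases after the gene's start and is written 5′ to 3′ on the strand of the gene. Capitals mark matches to TTCNNNGAA, the pattern known for binding of STAT factors, which reads the same on both strands. Csn2 lies at chr5:87699396-87699675 on the minus strand, Csn1s2a at chr5:87774200-87774479 on the plus strand and Csn1s1 at chr5:87665958-87666237 on the plus strand.
Csn2: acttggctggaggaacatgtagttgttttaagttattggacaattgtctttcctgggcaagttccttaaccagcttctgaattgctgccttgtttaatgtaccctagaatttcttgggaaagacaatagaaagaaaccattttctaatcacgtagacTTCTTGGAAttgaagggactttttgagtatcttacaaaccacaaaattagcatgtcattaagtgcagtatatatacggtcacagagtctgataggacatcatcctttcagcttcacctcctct
Csn1s2a: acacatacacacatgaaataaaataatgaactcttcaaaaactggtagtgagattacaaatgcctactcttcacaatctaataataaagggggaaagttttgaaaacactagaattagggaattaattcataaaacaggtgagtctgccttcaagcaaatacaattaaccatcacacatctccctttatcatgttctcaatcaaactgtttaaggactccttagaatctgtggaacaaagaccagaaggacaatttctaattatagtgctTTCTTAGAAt
Csn1s1: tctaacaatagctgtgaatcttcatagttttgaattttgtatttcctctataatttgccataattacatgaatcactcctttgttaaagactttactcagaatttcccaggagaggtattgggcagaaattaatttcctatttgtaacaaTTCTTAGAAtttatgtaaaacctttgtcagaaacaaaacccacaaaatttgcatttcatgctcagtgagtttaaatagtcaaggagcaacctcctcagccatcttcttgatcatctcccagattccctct
Each of the 3 windows held 1 match. The first base of the match lay at -93 from the start of Csn2 and at -100 from the start of Csn1s1, whereas in Csn1s2a it lay after the start, at 21. Of all 32851 promoter windows of this length in the table, 7.83% held the pattern. The window of the whey acidic protein gene Wap on chromosome 11 held none. A match is only a match of letters and was not linked to a measurement of binding.

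On most arrays both genes lay close to the pool. Csn2 had a lowest log2 ratio of -1.07, a median of -0.12 and a highest of 6.64, with quartiles at -0.23 and -0.02 (SD 0.76, n = 319 arrays). Csn1s2a had a lowest of -0.44, a median of 0.04 and a highest of 5.94, with quartiles at -0.06 and 0.12 (SD 0.62, n = 319 arrays). The spread of both genes thus came from the upper end, since the 95th percentile of Csn2 was 0.38 and that of Csn1s2a was 0.33.

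An array was counted in the tail of a gene when its log2 ratio was at least 2 above the gene's median, a 4-fold step. The tail of Csn2 held 6 arrays and that of Csn1s2a held 4, all of which were also in the tail of Csn2. For Csn2 the step ended at a ratio of 1.88, with the lowest array inside at 2.09 and the highest outside at 1.85, so the border cut through a run of close values. For Csn1s2a the lowest inside was 4.45 and the highest outside was 1.32, a wide empty stretch. With a step of 1 the tails held 10 and 6 arrays, and with a step of 3 they held 4 each.

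The 4 highest arrays were those of animals 278, 247, 202 and 338. Csn2 read 6.64 in animal 278, 6.47 in animal 247, 6.07 in animal 202 and 4.77 in animal 338. The value of animal 278 sits at the upper limit of the deposited scale, 2 in log10 units, so it is a lower bound. Csn1s2a read 5.84, 5.94, 4.97 and 4.45 in the same animals. Both genes thus placed these 4 arrays apart from all others and placed animal 338 lowest among them. The 4 arrays held 48.1% of the summed linear Csn2 ratios of all 319 arrays and 34.4% of those of Csn1s2a. The mean linear ratio over all arrays was 1.85 for Csn2 and 1.57 for Csn1s2a. The share and the mean of Csn2 are lower bounds too, since they include the value of animal 278.

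Below them came 6 arrays of intermediate level. Csn2 read 2.40 in animal 69, 2.09 in animal 46, 1.85 in animal 78, 1.79 in animal 329, 1.42 in animal 70 and 1.30 in animal 272. Csn1s2a read 0.66, 1.30, 0.87, 1.32, 0.24 and 0.93 in those animals. Csn2 and Csn1s2a ordered these 6 differently: animal 69 was highest for Csn2, whereas animals 329 and 46 were highest for Csn1s2a. The next array down, that of animal 152, read 0.81 for Csn2 and 0.44 for Csn1s2a.

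**Figure D1:**
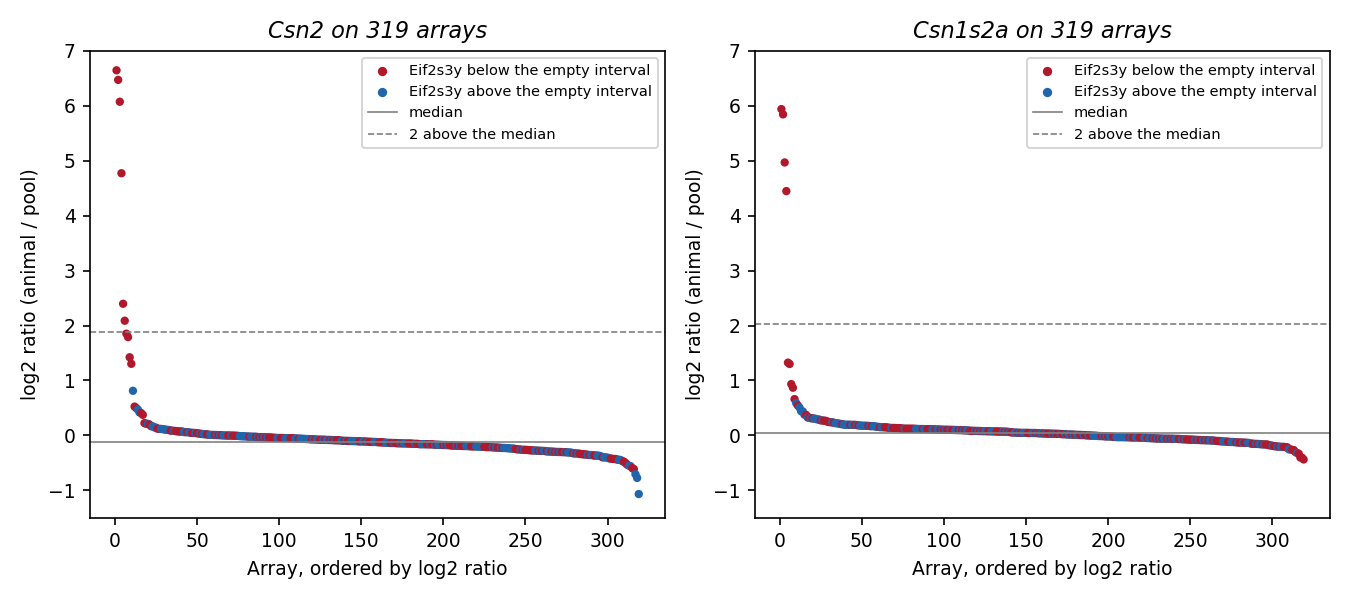
Log2 ratio (animal over pool) of Csn2 on the left and Csn1s2a on the right for each of 319 arrays, ordered from high to low; red points have Eif2s3y below and blue points above its empty interval, and the dashed line marks 2 above the median. 4 arrays lie between 4.45 and 6.64 in both panels, the rest near 0 apart from a short run of intermediate values, and all points over 1 are red.

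Over all 319 arrays the correlation of Csn2 with Csn1s2a was r = 0.942, with a rank correlation of 0.372. It was 0.887 once the pair of arrays most distant from the median score was left out, and 0.580 without the 6 arrays of the tail. Without the 10 highest arrays it was 0.363, with a rank correlation of 0.310 (n = 309). The size of r therefore rested on the few high arrays, and a weaker likeness was present among the rest. All arrays share the pool channel, and the relation of the arrays' own medians to the caseins differed between sets of arrays: on the 309 arrays below the 10 highest, the mean of the 2 standardised genes, called the casein score, had r = 0.376 and a rank correlation of 0.420 with the array median. Over all 319 arrays r with the array median had the opposite sign, -0.113, with a rank correlation of 0.365. The score is expressed in units of its SD.

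The Y-linked gene Eif2s3y, a translation initiation factor subunit, had an empty stretch between -3.71 and -0.79, with 164 arrays below it and 155 above. All 10 arrays of highest casein score lay below it, with Eif2s3y between -6.05 and -4.68. Kdm5d, a Y-linked histone demethylase, lay between -3.76 and -2.11 on these 10 arrays. On the 155 arrays above the stretch Csn2 reached at most 0.81 and Csn1s2a at most 0.59, so neither gene had a value in the tail there. The medians on both sides were close, at -0.13 below and -0.12 above for Csn2 and at 0.03 below and 0.04 above for Csn1s2a. The difference between the sides was therefore one of the tail and not of the typical array. These counts belong to the values that chose the genes and carry no test.

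The other caseins of the region followed to different degrees. Csn1s1, which encodes alpha-S1-casein, had a median of -0.48 and read 6.27 in animal 278, 5.70 in animal 247, 5.45 in animal 202 and 4.84 in animal 338. On the 6 intermediate arrays it lay between 1.41 and 3.30, highest in animal 69 as for Csn2. Csn1s1 had a longer tail than the pair: 11 arrays lay at least 2 above its median, and 20 lay at least 1 above. Of those 11 arrays, those of animals 72 and 144 were outside the 10 highest casein scores. Csn1s1 read 1.89 in animal 72 and 1.65 in animal 144, where Csn2 read -0.05 and 0.20. High Csn1s1 without high Csn2 was thus seen on these arrays.

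Csn3 encodes kappa-casein, which coats the micelle surface. It read 3.53 in animal 278, 2.67 in animal 247, 2.43 in animal 202 and 1.25 in animal 338, against a median of -0.11. On the intermediate arrays it reached 1.47 in animal 69 and 1.02 in animal 78 but only 0.07 in animal 329 and -0.01 in animal 70. Animal 72, flat for Csn2 and Csn1s2a, had the fourth highest Csn3 value at 1.82. Csn1s2b, the neighbour of Csn1s2a that encodes alpha-S2-casein B, was flat on the high arrays, at -0.39 to 0.08 on the top 4 and at most 1.17 on any array. Its r was -0.086 with Csn2 and -0.098 with Csn1s2a. A reading at the pool's level there cannot show whether the probe was above background.

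Every other probe was then tested for a linear relation with the casein score in limma, with Benjamini-Hochberg adjustment over 23188 probes and the probes of the score left out. Slopes are in log2 units per 1 SD of the score, with the standard error. Of all probes, 237 (1.02%) were higher with a rising score and 36 (0.155%) were lower at an adjusted p below 0.05, or 273 (1.18%) in either direction. The higher ones included 159 named genes. Among the milk proteins 10 of 16 probes were higher and none was lower. The lists were chosen with earlier results of these data known, and the genes of the score for their values on these arrays. The counts and p-values of list genes are therefore no independent support. The median slope of that list was 0.12, against -0.004 over all probes.

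Csn1s1 had the largest r of all, 0.863, and a slope of 0.76 ± 0.025 (adjusted p = 2.47e-92). Csn3 followed with r = 0.768 and a slope of 0.30 ± 0.014 (adjusted p = 1.33e-59). The third was Wap, which encodes the whey acidic protein, the main whey protein of rodent milk (r = 0.679, slope 0.22 ± 0.014, adjusted p = 3.94e-40). Wap was at least 2 above its median on the top 3 arrays only, at 2.26 in animal 278, 3.08 in animal 247 and 2.70 in animal 202, and read 0.52 in animal 338 and -0.33 in animal 78.

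Some genes of the milk fat globule and of milk defence also rose with the score, and others did not pass the test. Btn1a1, butyrophilin of the fat globule membrane, read 3.14, 3.70, 2.06 and 2.91 in animals 278, 247, 202 and 338, against a median of -0.59 (r = 0.531). Wfdc18, a secreted protein with a whey acidic protein domain, read 4.61, 2.82, 3.34 and 1.55 there, against a median of -2.90 (r = 0.460). Wfdc18 differed from the caseins in that 41 arrays lay at least 2 above its median. Lao1, an L-amino acid oxidase of mouse milk, read 2.59, 4.04, 2.12 and 1.97 in the 4 animals but -0.37 to -0.15 on the 4 intermediate arrays that had a value. Its 257 values included 1 array at the upper limit outside the 10 highest casein scores. Ltf, the iron-binding lactoferrin, read 1.97, 1.77, 1.01 and 1.56 in the 4 animals (r = 0.291). It ranked only 7, 10, 22 and 14 there, and 15 arrays lay at least 2 above its median. Its highest value, 3.08, was on an array outside the 10 highest casein scores. Cel, a bile salt-activated lipase of milk (r = 0.450), Muc1, a mucin of the luminal cell surface (r = 0.300), and Lalba, the alpha-lactalbumin of lactose synthase (r = 0.320), completed the called members. Lalba was called with a small slope of 0.04 ± 0.007, and its highest value on any array was 0.94, in animal 247. Xdh, Mfge8, Muc15, Slc34a2, Aldoc and Csn1s2b did not pass the test, with r between -0.094 and 0.176.

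**Figure D2:**
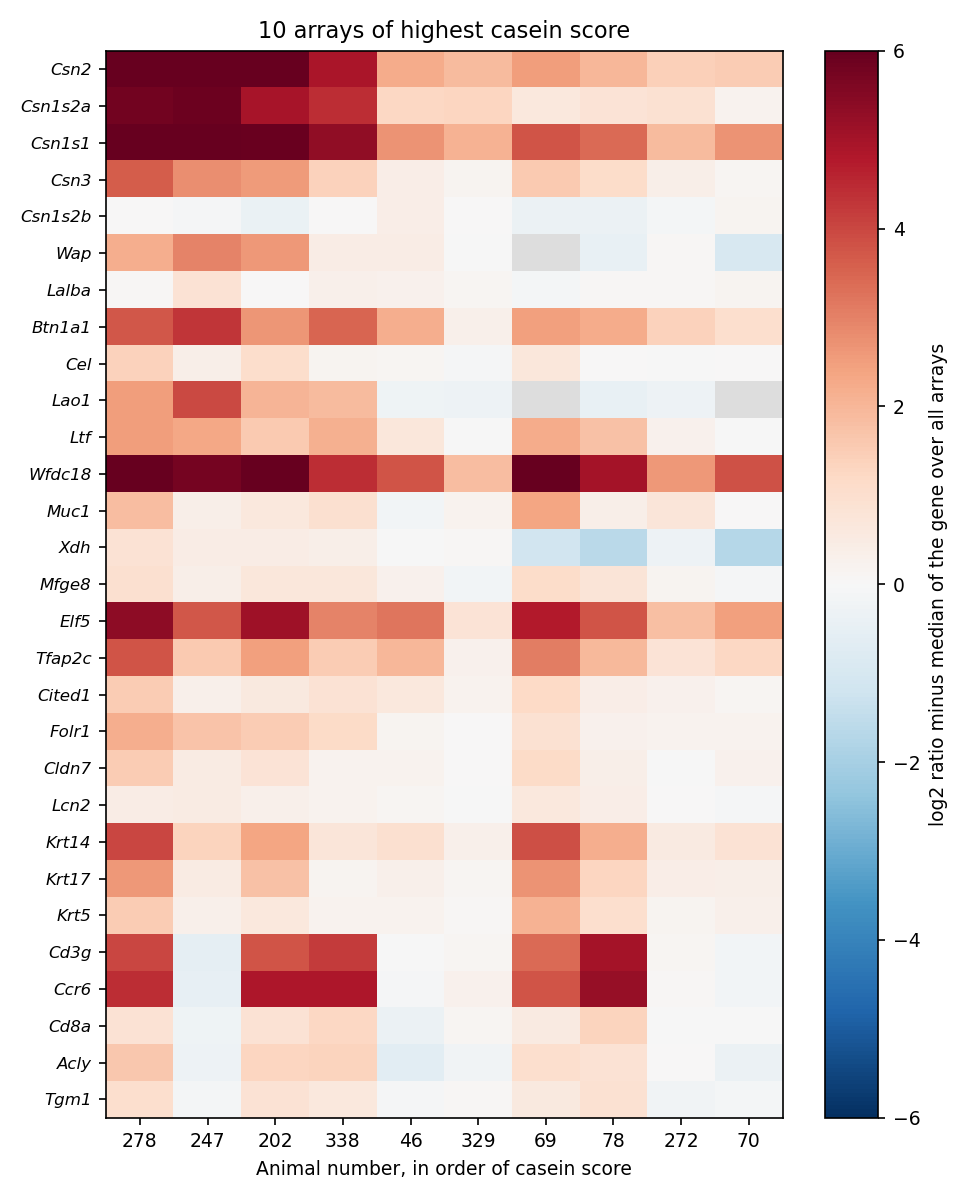
Log2 ratio minus the gene's median over all arrays, for Csn2, Csn1s2a and 27 other genes in rows and the 10 arrays of highest casein score in columns, named by animal number; colours stop at -6 and 6, and grey cells have no value. Csn1s1 follows Csn2 on all 10 arrays, Wap is red on 3, Csn1s2b and Lalba are pale throughout, and Cd3g and Ccr6 are red in animals 278, 202, 338, 69 and 78 only.

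Of the regulators of mammary development, 7 of 20 probes were higher, against 1.02% of all probes, and none was lower. The 20 probes covered 18 of the 22 listed genes, and Prlr, the prolactin receptor, was not among those tested. Tfap2c, a transcription factor of the AP-2 family (r = 0.437), Cited1, a transcriptional coregulator (r = 0.414), and Elf5 (r = 0.413) led the list, followed by Erbb3, Gata3, Foxa1 and Stat5a. Elf5, the ETS factor required for alveolar cells, read 4.08 in animal 278, 2.45 in animal 247, 3.82 in animal 202 and 1.69 in animal 338, against a median of -1.28. It was also high on the intermediate arrays of animals 69 (3.49) and 78 (2.48) and lower in animal 329 (-0.47). Stat5a was called with r = 0.203 and a slope of 0.05, whereas Stat5b had r = 0.010. Jak2 had the lowest r of the list, -0.086, and did not pass the test (adjusted p = 0.553). Esr1 and Pgr, the oestrogen and progesterone receptors, had r of 0.045 and -0.034 and did not pass.

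Genes of simple epithelium formed the list with the largest share of calls, 19 of 26 probes from 18 of 23 genes, against 1.02% of all probes. Folr1, a folate receptor, had the largest r (0.648) and read 2.20, 1.72, 1.55 and 1.17 in animals 278, 247, 202 and 338. The luminal keratins Krt8, Krt18 and Krt19, the adhesion genes Epcam and Cdh1 and the tight junction genes Cldn3, Cldn4 and Cldn7 each had a probe that was higher. A second probe of Krt18 (r = -0.009) and of Cdh1 (r = 0.055) did not pass, so probes of the same gene disagreed. Rab25, Elf3, Prom1, Pigr and Slc12a2 did not pass either.

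The remaining lists described other tissues that a muscle sample could carry. The muscle fibre list was measured only through the slow-fibre genes Myh7, Myl2, Tnnc1 and Tnnt1, and Pygm. None of the 19 probes for basal and myoepithelial cells, 14 for epidermis, 12 for hair follicle, 14 for adipocytes, 21 for lymph node, 5 for muscle fibres and 4 for Y-linked genes was called in either direction. In the salivary and lacrimal list 1 of 13 was higher (Klk1, r = 0.234), and in the sebaceous list 1 of 5 (Fads2, r = 0.228). Over all probes 1.02% were higher and 0.155% lower. At that share lists of this size give few or no calls, so these counts are not read as a result about these tissues. Klk1, a tissue kallikrein, read 2.22, 1.04, 2.13 and 1.19 in animals 278, 247, 202 and 338. Of the basal keratins, Krt14 came closest (r = 0.178, adjusted p = 0.0863), at 2.63 in animal 278 and 2.49 in animal 69 but 0.00 in animal 247 and -0.61 in animal 338. The plot of list counts sets the first 3 lists and the others beside the share over all probes. A list without calls can still have a high level on single arrays.

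**Figure D3:**
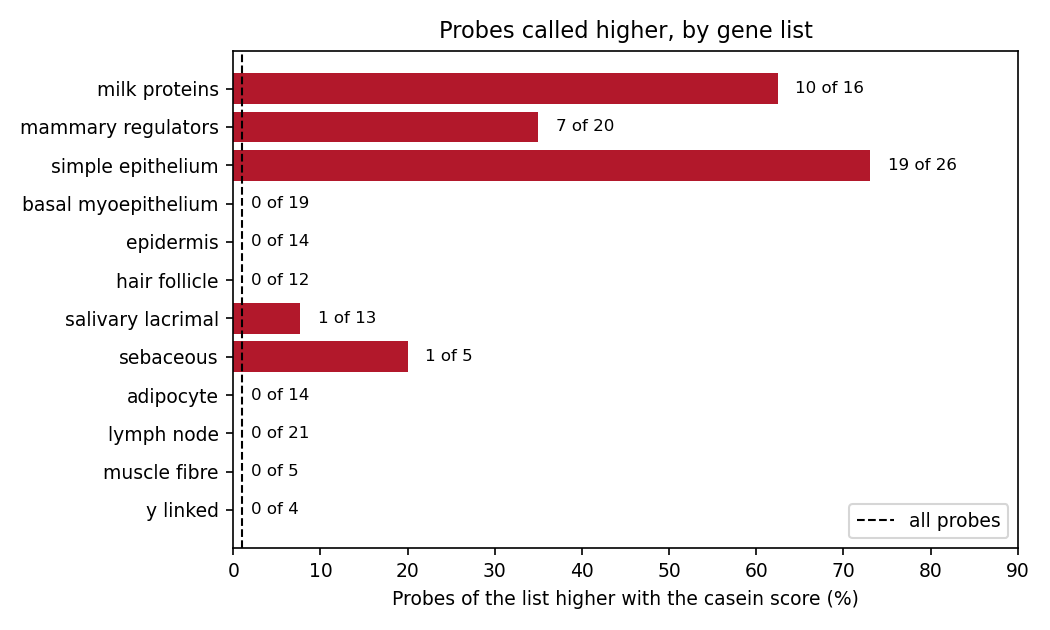
Share of each list's probes (percent) that were higher with a rising casein score at an adjusted p below 0.05, with the counts beside each bar; the dashed line is the share over all probes, 1.02%. The milk protein (10 of 16), mammary regulator (7 of 20) and simple epithelium (19 of 26) bars stand out, and 7 of the other 9 lists have no call.

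Outside the lists, the genes most like the caseins included serum amyloids. Saa2 had r = 0.587 and read 3.32, 4.79, 3.30 and 3.71 in animals 278, 247, 202 and 338, against -0.44 to 0.65 on the 6 intermediate arrays. Saa1 had r = 0.453 and read 1.17, 2.10, 1.58 and 0.85 in the same 4. Both serum amyloid genes, known as acute phase proteins, were thus raised on the top 4 arrays and lower on the next 6. Saa2 still ranked 22, 24 and 32 of 319 in animals 329, 78 and 272. On the top 4 arrays it ranked 5, 1, 6 and 3, so arrays outside the 10 highest casein scores reached the same range. Other genes among the 20 of largest r were Marveld3, a tight junction protein (0.460), Crabp2, which binds retinoic acid (0.432), Muc20, a mucin (0.429), Meltf, a transferrin family protein (0.427), D17H6S56E-5 (0.414), Sftpd, surfactant protein D (0.405), and Lama1, a laminin chain (0.405). The most negative named genes had far smaller r. These were Adcy2, an adenylate cyclase (-0.262), Kctd9 (-0.259), Nqo1, a quinone reductase (-0.242), Lrrfip2 (-0.226) and Phex, an endopeptidase (-0.217).

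The counts rested on the few high arrays. Leaving out animal 278 left 73 higher probes (0.315%) and leaving out animal 202 left 158 (0.681%), whereas leaving out animal 247 gave 490 (2.11%) and leaving out animal 338 gave 226 (0.975%). Over these 4 fits the milk list had 9 to 10 higher probes, the simple epithelium list 12 to 19 and the regulators 3 to 7, with the lowest counts of the last 2 lists reached without animal 278. Without all 4, 3772 probes (16.3%) were higher and 5.23% lower, so that background changed too. Csn1s1 kept r = 0.666 then (adjusted p = 1.05e-37) and Csn3 kept r = 0.289 (adjusted p = 0.00014), while Wap was at -0.025 and Saa1 at -0.091. Without the 6 arrays of the tail 27.3% of all probes were higher and 14.1% lower, and the milk list had 4 higher and 2 lower. Without the 10 highest arrays 62.3% were called in either direction, 36.9% higher and 25.4% lower, and the milk list had 3 higher and 3 lower. With the score replaced by the normal scores of its ranks 33.9% were higher and 21.6% lower. The milk list had 2 lower probes there, and the number of its higher ones is not given here. With array medians subtracted 2.65% were higher, with 11 of 16 in the milk list. The relation of the array median to the score is given above, and its part in these counts was not tested.

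**Figure D4:**
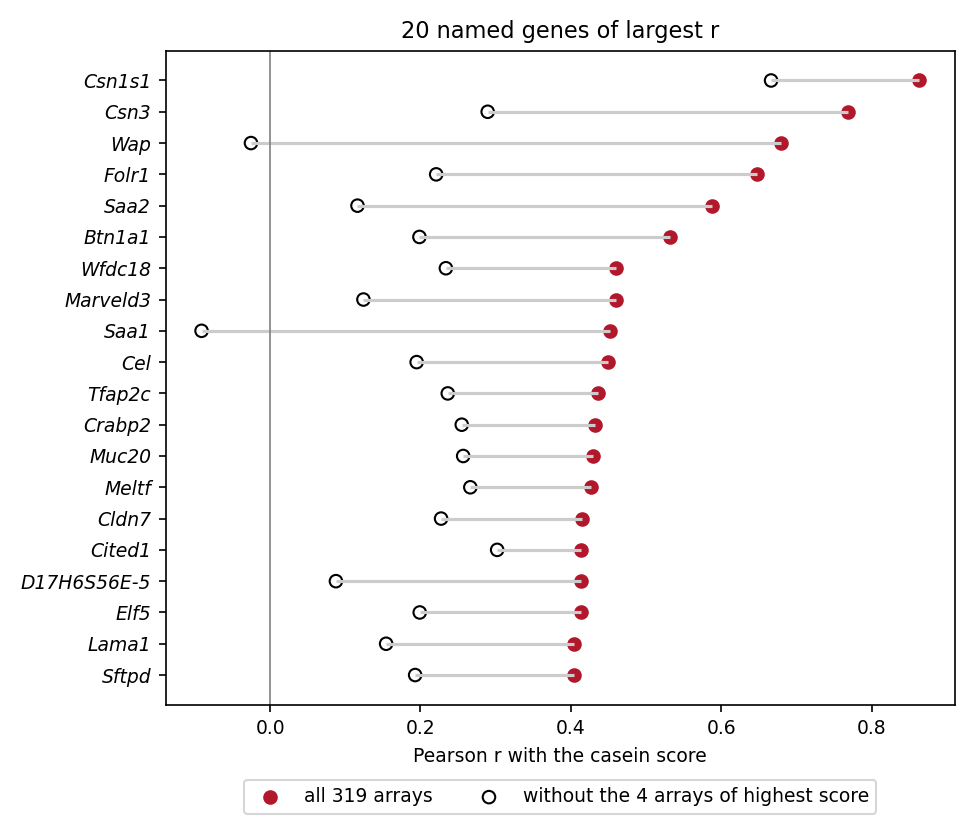
Pearson r with the casein score (horizontal axis, no unit) for the 20 named genes of largest r, over all 319 arrays (filled red) and without the 4 arrays of highest score (open). All 20 are lower without the 4 arrays: Csn1s1 stays at 0.666, Csn3 at 0.289 and Cited1 at 0.302, whereas Wap and Saa1 lie below 0.

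Within the 164 arrays below the Eif2s3y interval, 171 probes (0.737%) were higher, with 10 of 16 in the milk list, 5 of 20 among the regulators and 16 of 26 in simple epithelium. Within the 155 arrays above it, where neither casein has a tail, 30.4% of all probes were higher. The relation of Csn2 to Csn1s2a was r = 0.962 below and 0.360 above the interval. Genes ordered by rank correlation were others than those ordered by r. Fam124a had the largest rank correlation (0.504) with r = 0.004, and the 10 genes of largest rank correlation, down to Krt4 (0.443), had r between -0.090 and 0.004. None of these 10 passed the test over all arrays.

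High Csn2 and Csn1s2a and high epithelial genes did not always come together. The simple epithelium level of an array, the mean of the list's log2 ratios less each gene's median, ran from -0.37 to 2.18 over all arrays. It was 2.18, 1.02, 1.34 and 0.95 in animals 278, 247, 202 and 338, all within the 21 highest of 319. Animal 72 had the level next to the highest, 1.96, with Csn2 at -0.05 and Csn1s2a at -0.07. The caseins Csn1s1 and Csn3, which are not part of the score, were high in animal 72, as given above. Animals 104, 264 and 53 had levels of 1.63, 1.63 and 1.52, with Csn2 at -0.31, -0.19 and -0.14. In the other direction, animal 329 had Csn2 at 1.79 with a level of only 0.11, rank 97. Of the 20 arrays of highest simple epithelium level, 5 were among the 10 highest casein scores and 19 lay below the Eif2s3y interval.

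**Figure D5:**
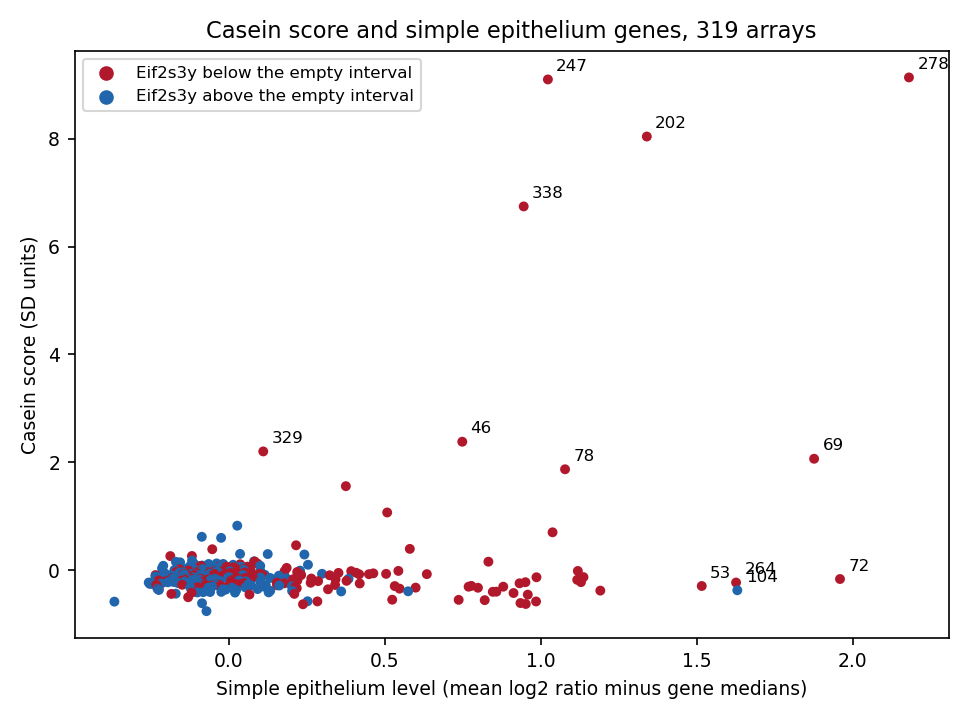
Casein score (SD units, vertical) against the simple epithelium level (mean log2 ratio less gene medians, horizontal) for 319 arrays, coloured by the side of the Eif2s3y interval, with animal numbers for the extremes. Animals 278, 247, 202 and 338 are high on both axes, whereas animals 72, 104, 264 and 53 are high on the horizontal axis only and animal 329 on the vertical axis only. The score holds Csn2 and Csn1s2a only, and Csn1s1 and Csn3 were high in animal 72.

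Markers of other tissues on the high arrays varied from animal to animal. The lymph node level was 2.35 in animal 278, 2.34 in animal 202, 2.35 in animal 338, 1.88 in animal 69 and 2.73 in animal 78, but -0.36 in animal 247, and between -0.10 and 0.12 in animals 46, 329, 272 and 70. Animal 247, with the highest Csn1s2a, thus had a lymph node level at rank 308 of 319. The adipocyte level of the 10 arrays lay between -0.29 and 0.82 and that of epidermis between -0.15 and 0.14, where the highest arrays of the series reached 0.97 and 1.53. The adipocyte level ranked 5, 8 and 10 of 319 in animals 278, 202 and 69 but lay below 0 in animals 247, 46, 329 and 70. The basal myoepithelium level was 1.54 in animal 69 (rank 2) and 1.31 in animal 278 (rank 5). It was 0.69 in animal 202, 0.24 in animal 247 and -0.275 in animal 338. The muscle fibre level, from the 5 measured of 18 listed genes, lay between -1.66 and 0.66 on the 10 arrays and between -3.43 and 1.61 over all. These 5 were the slow-fibre genes Myh7, Myl2, Tnnc1 and Tnnt1, and Pygm. Listed genes such as Acta1, Ckm and the fast myosins were not among them, so the level does not stand for muscle content as a whole. These ratios to a pool of muscle do not show whether a marker is near 0 in absolute terms. The part of these tissues in the casein values was not tested.

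Across the whole series 0.654% of values were blank. The array medians lay between -0.08 and 0.14 and the array SDs between 0.213 and 1.08. Pairwise correlations of arrays over probes, 50721 in all, ran from -0.601 to 0.848, and 3735 pairs (7.36%) were below -0.3. The labels give the same dyes for every array but not the direction of the ratio, which was taken from the Y-linked genes and kept for all arrays. Among the 4 highest arrays the pairwise correlations ran from -0.167 to 0.683, against a median of 0.270 over all pairs. Nothing in the labels says whether any sample was hybridised more than once.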

How the data were processed

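Muscle RNA of F2 mice was measured on 319 arrays with 2 colours. The deposited table gives a log10 ratio for each probe on each array, and no source used here states the authors' background correction or normalisation. The base was read from the limits at exactly -2 and 2, and the direction, animal over pool, from Y-linked genes. Values were converted to log2 without rescaling. The series text names 319 mice and the sample descriptions 330. For 1 sample the title and source name give different animal numbers and the source name was used, and 2 arrays share the number 227. Symbols came from the platform annotation for 13639 probes with 1 symbol, of which 12647 (10831 genes) were found in RefSeq for GRCm38.p6. Probes with values on at least 80% of arrays were tested, 23190 including both casein probes. The casein score is the mean of the standardised Csn2 and Csn1s2a values. Each probe was regressed on it with limma 3.58.1 in R 4.3.3 (lmFit, eBayes, Benjamini-Hochberg, threshold 0.05). The procedure was first run on simulated noise, independent between probes, with known slopes added. Because probes on real arrays are not independent, that run cannot show how far the calls here hold. Named genes are the measured milk proteins, the 20 named genes with the largest r with the score, the 5 with the most negative, the 10 with the largest rank correlation, from each of the other 11 lists the 3 with the largest r and the 1 with the lowest, and Eif2s3y and Kdm5d. Further genes of the lists are given with their calls, and arrays and genes outside this rule that are singled out were chosen after their values were seen. The members and the 12 lists were chosen with earlier results of these data known. Scalings, filters, ranks, left-out arrays and animal number as a block were tried as alternatives. Glycam1 and Pthlh had no named probe here. The fits rested on the few arrays of high score, as the counts with single arrays left out show, and not on the number of animals alone. Where nothing states separate hybridisations, p-values measure the spread between these arrays, which may be partly technical.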

Additional observations from a re-analysis of the deposited data

How the results depend on the processing

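The highest Csn2 value was 4.89 and the highest Csn1s2a value 3.84 after quantile normalisation, and with a step of 1 the Csn2 tail held 10 arrays. The r between both genes was 0.580 without the tail. Higher and lower probes over all probes numbered 7871 and 5006 with normal scores of the ranks of the score, called ranks below, 6320 and 3267 without the tail, 7045 and 4476 on the arrays above the Eif2s3y interval, 614 and 98 with array medians subtracted and 139 and 66 after quantile normalisation. They numbered 418 and 150 with animal number in 4 blocks, and 63 higher and 3 lower without the 2 farthest arrays. Csn2 alone gave 343 higher and 82 lower probes, and Csn1s2a alone 171 and 17. Array exclusions added after seeing the data gave 3772 and 1213 without the 4 highest arrays and 8561 and 5892 without the 10 highest. Leaving out each of the 4 highest arrays in turn gave 73 to 490 higher and 2 to 136 lower probes, and 9 to 10 higher for milk proteins, 3 to 7 for regulators, 12 to 19 for simple epithelium and 0 to 5 for the other 9 lists. Higher probes of the milk proteins numbered 4 without the tail and 3 without the 10 highest arrays, and lower ones 2 with ranks, 2 without the tail and 3 without the 10 highest. Of the regulators, 3 were higher without the tail and 4 without the 4 highest arrays, and lower ones numbered 4 with ranks, 2 without the tail and 9 without the 10 highest. Simple epithelium had 6 higher probes with ranks, 4 without the tail, 5 without the 4 highest arrays and 3 without the 10 highest, and lower ones numbered 1 with ranks, 2 without the tail and 10 without the 10 highest. The lists held 16 milk protein, 20 regulator and 26 simple epithelium probes. Over all probes, 33.9% were higher with ranks, 27.3% without the tail, 16.3% without the 4 highest arrays and 36.9% without the 10 highest. Lower probes made up 21.6%, 14.1%, 5.23% and 25.4% in the same order. These list counts are therefore not read as a result about the lists. The other 9 lists together had 2 higher probes over all arrays, 25 with ranks, 18 without the tail, 1 below the Eif2s3y interval, 5 with array medians subtracted, 9 without the 4 highest arrays and 23 without the 10 highest. Their lower probes numbered 34 with ranks, 21 without the tail, 4 without the 4 highest arrays and 39 without the 10 highest. Without the 6 arrays of the tail, r changed sign for 38 named genes, to -0.0853 for Wap, -0.12 for Saa1, -0.00852 for D17H6S56E-5, -0.0144 for Lama1, 0.127 for Kctd9, 0.0194 for Nqo1, 0.00225 for Lrrfip2, 0.332 for Vax2os and 0.269 for Grik1. Next came 0.264 for Ogdhl, 0.331 for Sprr1b, 0.287 for Spag4, 0.317 for Olfr281, 0.293 for Nmur2, 0.33 for Krt4, -0.0761 for Xdh, -0.16 for Mfge8 and -0.0242 for Ltf. The sign also turned to -0.125 for Lao1, -0.0124 for Slc34a2, -0.114 for Aldoc, -0.0516 for Krt14, -0.104 for Krt17, -0.0138 for Krt5, -0.0911 for Tgm1, -0.0169 for Cdsn and 0.15 for Aloxe3. Also turned were -0.132 for Klk1, 0.0189 for Amy1, 0.118 for Awat1, -0.15 for Acly, -0.115 for Elovl6, -0.000722 for Cd8a, -0.129 for Cd3g, -0.135 for Ccr6 and 0.144 for Ccr7. Further values were 0.089 for Pygm and 0.0828 for Usp9y. Without the 4 highest arrays, r changed sign for 30 named genes, to -0.0255 for Wap, -0.0912 for Saa1, 0.013 for Kctd9, 0.229 for Vax2os, 0.182 for Grik1, 0.183 for Ogdhl, 0.23 for Sprr1b, 0.202 for Spag4 and 0.243 for Olfr281. Among the same genes r was 0.171 for Nmur2, 0.249 for Krt4, -0.086 for Xdh, -0.0517 for Mfge8, -0.123 for Lao1, -0.00433 for Slc34a2, -0.0303 for Aldoc, -0.014 for Krt17 and -0.0573 for Tgm1. Others were -0.0211 for Cdsn, 0.0661 for Aloxe3, -0.0945 for Klk1, 0.101 for Awat1, -0.121 for Acly, -0.0658 for Elovl6, -0.00683 for Cd8a, -0.0793 for Cd3g and -0.0887 for Ccr6. Next came 0.0895 for Ccr7, 0.0503 for Pygm and 0.0591 for Usp9y. Without the 10 highest arrays, r changed sign for 46 named genes, to -0.114 for Btn1a1, -0.0857 for Wfdc18, -0.157 for Saa1, -0.0783 for Tfap2c, -0.107 for D17H6S56E-5, -0.0992 for Elf5, -0.184 for Lama1, 0.149 for Adcy2 and 0.28 for Kctd9. The sign also turned to 0.135 for Nqo1, 0.0892 for Lrrfip2, 0.524 for Vax2os, 0.479 for Grik1, 0.41 for Ogdhl, 0.534 for Sprr1b, 0.502 for Spag4, 0.467 for Olfr281 and 0.49 for Nmur2. Also turned were 0.451 for Krt4, -0.0108 for Xdh, -0.272 for Mfge8, -0.0153 for Muc1, -0.0886 for Ltf, -0.112 for Lao1, -0.178 for Aldoc, -0.135 for Krt14 and -0.207 for Krt17. Further values were -0.0746 for Krt5, 0.0293 for Lgals7, -0.179 for Tgm1, 0.22 for Aloxe3, -0.188 for Klk1, 0.0239 for Amy1, -0.0963 for Elovl3, 0.0876 for Awat1 and -0.225 for Acly. Among the same genes r was -0.187 for Elovl6, -0.0814 for Cd8a, -0.251 for Cd3g, -0.248 for Ccr6, 0.322 for Ccr7, 0.00224 for Myl2, 0.105 for Pygm, 0.212 for Usp9y and 0.0424 for Eif2s3y. Others were 0.0535 for Kdm5d. On the arrays above the Eif2s3y interval, r changed sign for 35 named genes, to -0.225 for Saa1, -0.129 for Lama1, 0.00314 for Adcy2, 0.333 for Kctd9, 0.0851 for Nqo1, 0.0761 for Lrrfip2, 0.51 for Vax2os, 0.423 for Grik1 and 0.434 for Ogdhl. Next came 0.521 for Sprr1b, 0.472 for Spag4, 0.469 for Olfr281, 0.479 for Nmur2, 0.432 for Krt4, -0.0164 for Xdh, -0.187 for Mfge8, -0.0651 for Lao1 and -0.0231 for Slc34a2. The sign also turned to -0.179 for Aldoc, -0.0751 for Krt14, -0.181 for Krt17, -0.0393 for Krt5, -0.156 for Tgm1, -0.0185 for Cdsn, 0.0921 for Aloxe3, -0.165 for Klk1 and -0.159 for Elovl3. Also turned were 0.128 for Awat1, -0.291 for Acly, -0.438 for Elovl6, -0.184 for Cd3g, -0.182 for Ccr6, 0.282 for Ccr7, 0.105 for Pygm and 0.192 for Usp9y. With normal scores of the ranks of the score, r changed sign for 33 named genes, to 0.0192 for Adcy2, 0.122 for Kctd9, 0.0384 for Nqo1, 0.00396 for Lrrfip2, 0.459 for Vax2os, 0.428 for Grik1, 0.341 for Ogdhl, 0.427 for Sprr1b and 0.399 for Spag4. Further values were 0.399 for Olfr281, 0.425 for Nmur2, 0.414 for Krt4, -0.187 for Mfge8, -0.122 for Aldoc, -0.0449 for Krt14, -0.112 for Krt17, -0.00829 for Krt5 and 0.0213 for Lgals7. Among the same genes r was -0.118 for Tgm1, -0.0172 for Cdsn, 0.162 for Aloxe3, -0.0988 for Klk1, -0.00573 for Elovl3, 0.098 for Awat1, -0.162 for Acly, -0.126 for Elovl6 and -0.0407 for Cd8a. Others were -0.196 for Cd3g, -0.191 for Ccr6, 0.255 for Ccr7, 0.0203 for Myl2, 0.0931 for Pygm and 0.142 for Usp9y. With Csn2 alone, r changed sign for 4 named genes, to -0.0212 for Fam124a, -0.0198 for Cts8, -0.000386 for Muc15 and -0.00198 for Krt31. On the arrays below the Eif2s3y interval, r changed sign for 5 named genes, to -0.0584 for Fam124a, -0.000218 for Cts8, -0.0112 for Muc15, -0.0397 for Msx2 and -0.0533 for Krt31. With Csn1s2a alone, r changed sign for 3 named genes, to 0.0115 for Vax2os, 0.00163 for Grik1 and 0.0268 for Krt4. Without the 2 farthest arrays, r changed sign for 10 named genes, to 0.0349 for Vax2os, 0.0469 for Grik1, 0.0149 for Ogdhl, 0.0405 for Spag4, 0.045 for Olfr281, 0.0479 for Nmur2, 0.0324 for Krt4, -0.00403 for Aldoc and -0.00932 for Cdsn. Next came 0.0223 for Pygm. After quantile normalisation, r changed sign for 7 named genes, to 0.0575 for Vax2os, 0.0476 for Grik1, 0.0298 for Spag4, 0.011 for Olfr281, 0.0365 for Nmur2, 0.0432 for Krt4 and -0.00359 for Cdsn. With array medians subtracted, r changed sign for 1 named gene, to 0.0073 for Krt4. When each of the 4 highest arrays was left out in turn, the sign of r changed at least once for 11 named genes. Their r ran from -0.00700 to 0.045 for Fam124a, -0.0268 to 0.0254 for Vax2os, -0.00667 to 0.0238 for Grik1, -0.0392 to 0.0252 for Spag4, -0.0407 to 0.0232 for Olfr281 and -0.0156 to 0.0056 for Nmur2. It ran from 0.000272 to 0.0331 for Krt4, -0.0287 to 0.0699 for Cdsn, -0.0408 to 0.00182 for Myh7, -0.0396 to 0.00666 for Myl2 and -0.136 to 0.0148 for Pygm. In all, r changed sign under some setting for 55 named genes, of which 16 were called over all arrays. Of the 32 called named genes, all 32 kept their direction and call with array medians subtracted, with no filter on blanks, with values at the limits left out and with animal number as a block, 31 did within the arrays below the Eif2s3y interval, 19 without the 4 highest arrays and 5 without the 10 highest. The cause of these changes was not tested. Depth is unknown for ratios, and signal over background is not in the table. No paired analysis was possible because all arrays form 1 group.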
